A study of Xiphophorus maculatus with 65 samples.

Results

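These are the genes of platyfish skin whose RNA was fitted with a daily peak between 15 h and 3 h on the hour labels of the samples. They were selected on their counts in the 16 skin libraries of *Xiphophorus maculatus* JpA males of 24 months whose labels give an hour. Each gene was fitted with 1 wave of a 24 h period, and it was taken where the Benjamini-Hochberg adjusted p of edgeR's quasi-likelihood test was under 0.05 and the fitted peak fell at 15 h or later or before 3 h. Of 20624 genes tested, 411 (1.99%) passed in any peak hour and 156 (0.756%) passed with a peak in this window. The clock gene *clock*, the clock outputs *nfil3* and *hlf*, and the genes *mxd3* and *spsb3* were set aside. This left 151 genes, the members described here. Of these, 62 have a gene symbol and 89 carry only an NCBI locus name (LOC), for which the annotation used here gives no function. Since the time of day fit chose the members, every value by hour below is a description and supports no test.

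The series holds 65 libraries of skin or liver RNA from males of the inbred strains JpA and JpB. All 16 hour-labelled libraries are JpA skin of 24 months, with 2 fish at each of 2, 5, 8, 11, 14, 17, 20 and 23 h, and they share 1 label date. Their fish have one-letter names at 2, 8, 14 and 20 h and two-letter names at 5, 11, 17 and 23 h. The labels give no light schedule, so an hour is used only as a label. Members were then followed in samples that played no part in choosing them. These were 5 JpA skin (3 labelled sham and 2 labelled 0pt) and 4 JpA liver libraries (1 sham and 3 at 0 min) of 20 months, 4 JpA skin libraries of 13 months (2 at 0 min and 2 sham), 4 JpB skin and 4 JpB liver libraries of 9 months that share a label date (2 at 0 min and 2 sham each), and 26 further JpB skin libraries of 9 to 12 months from 4 earlier label years. The label words of those 26 are UVB sham, UV at 0 kJ, 0 min, CO 0 min and 0pt. The labels do not define these words, none names a dose above 0, and no library other than the 16 has an hour.

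In vertebrates the circadian clock is a loop in which the CLOCK protein and its partners switch on the period and cryptochrome genes, whose proteins then hold CLOCK back. Nearly every tissue of a fish keeps such a clock, and fish skin cells can be set by light directly. Through output factors such as *nfil3* and *hlf*, the loop passes its rhythm to genes outside the loop.

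Total counts of the 16 libraries ran from 30135657 to 40610539. One library stood apart. The 17 h fish of replicate 9 had a TMM scaling factor of 0.693 where the other 15 had 0.962 to 1.11, and a median correlation of 0.897 with the others, which had 0.951 to 0.972. Its cytosolic ribosomal protein genes summed to 277700 CPM (counts scaled to library size with TMM), against 66490 to 83280 CPM in every other library, and its proteasome and leukocyte marker sums were the highest of the 16. Without it, 368 genes met the rule and 137 of the members were among them. Without the other 17 h fish, replicate 10, 971 genes met the rule, 150 of the members among them. The part that either library played in the members' levels was not tested further. Leaving out 1 of the libraries of replicates 5, 7, 8, 11, 13, 15, 16, 17, 20 or 21 gave between 40 and 90 genes, so the list depends on single fish. Of the members, 31 were called in all 16 such fits, and every member kept an unadjusted p under 0.05 and a peak within 3 h of its own in each of them.

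The genes set aside had clear profiles over the hour labels. *clock*, the activator of the loop, had 3.41 and 6.53 CPM at 5 h and 53.2 and 61.0 CPM at 17 h. *nfil3*, a repressor of clock-driven output genes, had 1.72 and 2.47 CPM at 5 h and 15.1 and 12.0 CPM at 17 h. *per1* and *per3*, which hold CLOCK back, had their fitted peaks at 5.25 h and 7.68 h. *per2*, the other period gene, had its fitted peak at 12.0 h. By the rule, the members have their fitted peaks in the window that also holds those of *clock* (16.5 h) and *nfil3* (18.7 h). The peaks of these period genes lie outside it. The window is wide, and members near its end at 3 h peaked closer to *per1* than to *clock*.

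Members were spread over the whole window. Peaks fell between 15 and 18 h in 47 members, 18 and 21 h in 36, 21 and 24 h in 28 and 0 and 3 h in 40. These are 1.4%, 1.51%, 1.26% and 1.5% of all tested genes whose fitted peak, called or not, fell in the same stretch. The fitted peak-to-trough difference ran from 0.73 to 7.64 on the log2 scale with a median of 1.53, and the median of all genes tested was 0.54. In 135 members it was at least 1 on the log2 scale. The highest value belongs to a gene with hardly any RNA. This gene, LOC102226936, was at 0 CPM in the median library and at 0.671 CPM in its highest. Between the 2 fish of an hour, the median SD of a member was 0.35 on the log2 scale.

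**Figure D1:**
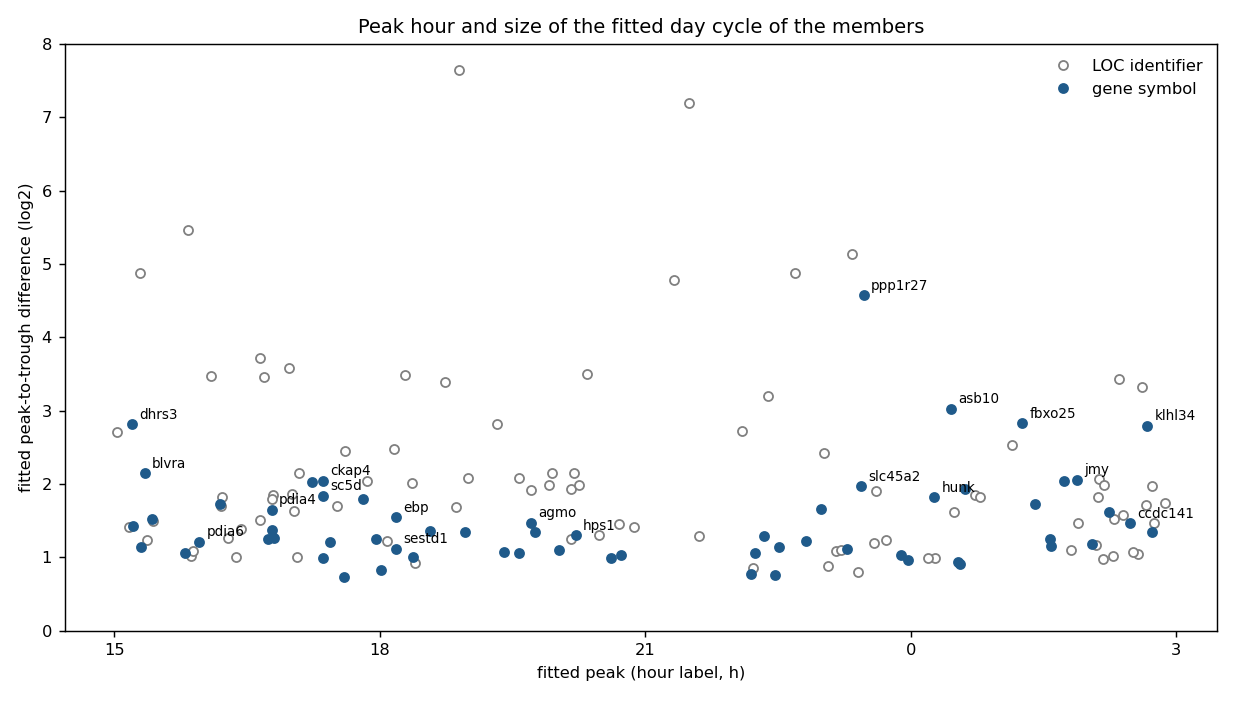
Fitted peak (x axis, hour label in h, running through midnight) against the fitted peak-to-trough difference (y axis, log2) for the members. Filled points have a gene symbol and open points a LOC identifier. *ppp1r27*, at 4.58, has the largest difference among genes with a symbol, and most points lie between 1 and 3.

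Cholesterol synthesis was represented by 3 enzymes of its late, sterol-modifying steps. *sc5d*, the sterol desaturase near the end of the pathway, had 29.2 and 11.5 CPM at 5 h, 94.2 and 105.7 CPM at 17 h, and 118.6 and 65.0 CPM at 20 h. The lowest fish of 17 and 20 h was thus above every fish of the other hours. *hsd17b7*, which reduces a keto group of the sterol intermediate, had 2.87 and 3.29 CPM at 5 h and 10.0 and 8.22 CPM at 14 h. *ebp*, the isomerase that moves the ring double bond, had 1.94 and 2.35 CPM at 5 h and 9.20 and 6.12 CPM at 14 h. All of them had their lowest hour mean at 5 h, and their fitted peaks lay at 17.4 h, 16.8 h and 18.2 h. Of 21 sterol genes listed, 19 were tested and only these passed, while 15 of the 19 had a fitted peak inside the window whether called or not, against 51.7% of all genes tested. The enzyme genes *dhcr7* (peak 17.0 h, adjusted p = 0.0862) and *idi1* (15.7 h, adjusted p = 0.0955) came next in the edgeR quasi-likelihood fit. In the fits that left out 1 library, *sc5d* was called in all 16, but *hsd17b7* and *ebp* in only 8 each.

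Of the 22 heat shock and chaperone genes tested, *pdia4* and *pdia6* alone passed, and 6 of the 22 (27.3%) had a fitted peak inside the window whether called or not, against 51.7% of all genes tested. Both encode protein disulfide isomerases of the endoplasmic reticulum (ER), which form and rearrange disulfide bonds. *pdia4* had 72.3 and 73.5 CPM at 5 h and 277.9 and 268.0 CPM at 14 h. *pdia6* had 60.9 and 72.3 CPM at 5 h and 207.4 and 190.5 CPM at 14 h. At 17 h the fish disagreed, with 175.3 and 94.4 CPM of *pdia4* in replicates 9 and 10, and at 20 h both genes were high again. *ckap4*, which shapes ER sheets, followed the same course, from 19.3 and 17.2 CPM at 8 h to 126.4 and 102.4 CPM at 14 h. Members outside the lists with a role in the same compartment were *sdf2l1*, a partner of ER chaperones (peak 17.4 h), *alg12*, a mannosyltransferase of glycan assembly (18.0 h), and *retreg3*, an ER-phagy receptor, whose peak was later (22.5 h). They were picked after their values were seen, so their peaks say nothing of ER genes as a group. The major ER chaperones *hsp90b1* and *hspa5* had fitted peaks at 16.8 h and 14.8 h with adjusted p of 0.0705 and 0.128 in the same edgeR fit. The chaperone list sum was also highest in replicate 9, at 9596 CPM against 4274 to 7129 CPM in the libraries of 2 to 11 h. The calls of these ER members depended on single fish. Of the 16 fits that left out 1 library, *pdia4* was called in 8, *pdia6* in 9 and *retreg3* in 11. *ckap4* and *sdf2l1* were called in 2 each, and *alg12* in 3.

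Among the members with a role in pigment cells were *hps1*, *slc45a2*, *rab32* and *cited1*. *hps1*, a subunit of a complex that builds melanosomes and related organelles, had 8.45 and 7.11 CPM at 11 h and 21.9 and 24.5 CPM at 20 h. *slc45a2*, a transporter of the melanosome membrane, had 0.565 and 0.964 CPM at 11 h and 5.17 and 4.26 CPM at 23 h. For both genes, no fish of the low hour reached the level of any fish of the high hour. *rab32*, a GTPase that carries cargo to melanosomes, peaked at 19.6 h, and *cited1*, a transcriptional coactivator found in pigment cells, at 22.2 h. Of these genes only *slc45a2* is in the melanophore marker list, and the others were placed beside it after their values were seen. In the fits that left out 1 library, *hps1* and *slc45a2* were called in all 16, *cited1* in 12 and *rab32* in 6. *slc45a2* was the only called gene among 12 melanophore markers tested, of which 7 (58.3%) had a fitted peak inside the window, against 51.7% of all genes. The summed level of the whole marker list ran from 192.2 to 258.2 CPM at 14 to 23 h and from 169.4 to 240.3 CPM at 2 to 11 h, with no marker at 0. In bulk tissue, fewer cells of a type and less RNA per cell cannot be told apart.

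Genes of retinoid, bile pigment and ether lipid metabolism were among the members that peaked from 15 to 20 h. *dhrs3*, which turns retinal back into retinol, had 7.70 and 4.95 CPM at 5 h and 91.4 and 49.6 CPM at 14 h. *blvra*, which makes bilirubin from biliverdin, had 8.13 and 6.75 CPM at 2 h and 38.2 and 37.7 CPM at 14 h. At 17 h the fish of *blvra* parted, with 35.7 CPM in replicate 9 and 9.74 CPM in replicate 10. *agmo*, which cleaves ether lipids, rose later, with 5.82 and 5.12 CPM at 11 h and 16.9 and 16.0 CPM at 20 h. It had the smallest adjusted p among members with a symbol and was called in all 16 fits that left out a library. *alad*, an early enzyme of heme synthesis, had 63.7 CPM in replicate 9 against 12.7 to 28.0 CPM in the other 15. *sestd1*, a lipid-binding protein with spectrin repeats, had 23.0 and 24.3 CPM at 5 h and 70.7 and 73.4 CPM at 20 h.

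The named members with the latest peaks have varied roles. *ppp1r27*, a regulatory subunit of protein phosphatase 1, was lowest from 8 to 14 h and highest at 23 and 2 h. It had 0.256 to 0.773 CPM in the 6 fish of 8, 11 and 14 h, 13.5 and 9.32 CPM at 23 h and 12.1 and 9.34 CPM at 2 h. The summed skeletal muscle markers ran from 949.5 to 4359 CPM at 14 to 23 h and from 1188 to 5032 CPM at 2 to 11 h, with no marker at 0. *hunk*, a serine/threonine kinase, had 12.6 and 13.1 CPM at 14 h and 74.8 and 37.6 CPM at 23 h. Both fish at 23 h were above both at 14 h, though they differed from each other. *jmy*, which nucleates actin filaments, had 5.39 and 6.93 CPM at 14 h and 31.9 and 47.1 CPM at 2 h. *fbxo25*, an F-box protein of a ubiquitin ligase, had 1.73 and 3.20 CPM at 14 h and 47.8 and 31.1 CPM at 2 h. These profiles run against those of *pdia4* and *dhrs3*, with the trough of one set at the 14 h peak of the other. *asb10* and *klhl34*, which are built like substrate receptors of ubiquitin ligases, had their highest level at 2 h with wide spread, at 10.5 and 4.02 CPM and at 8.70 and 2.33 CPM. *ccdc141*, a coiled-coil protein, had 1.81 and 1.07 CPM at 11 h and 4.84 and 4.66 CPM at 2 h.

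**Figure D2:**
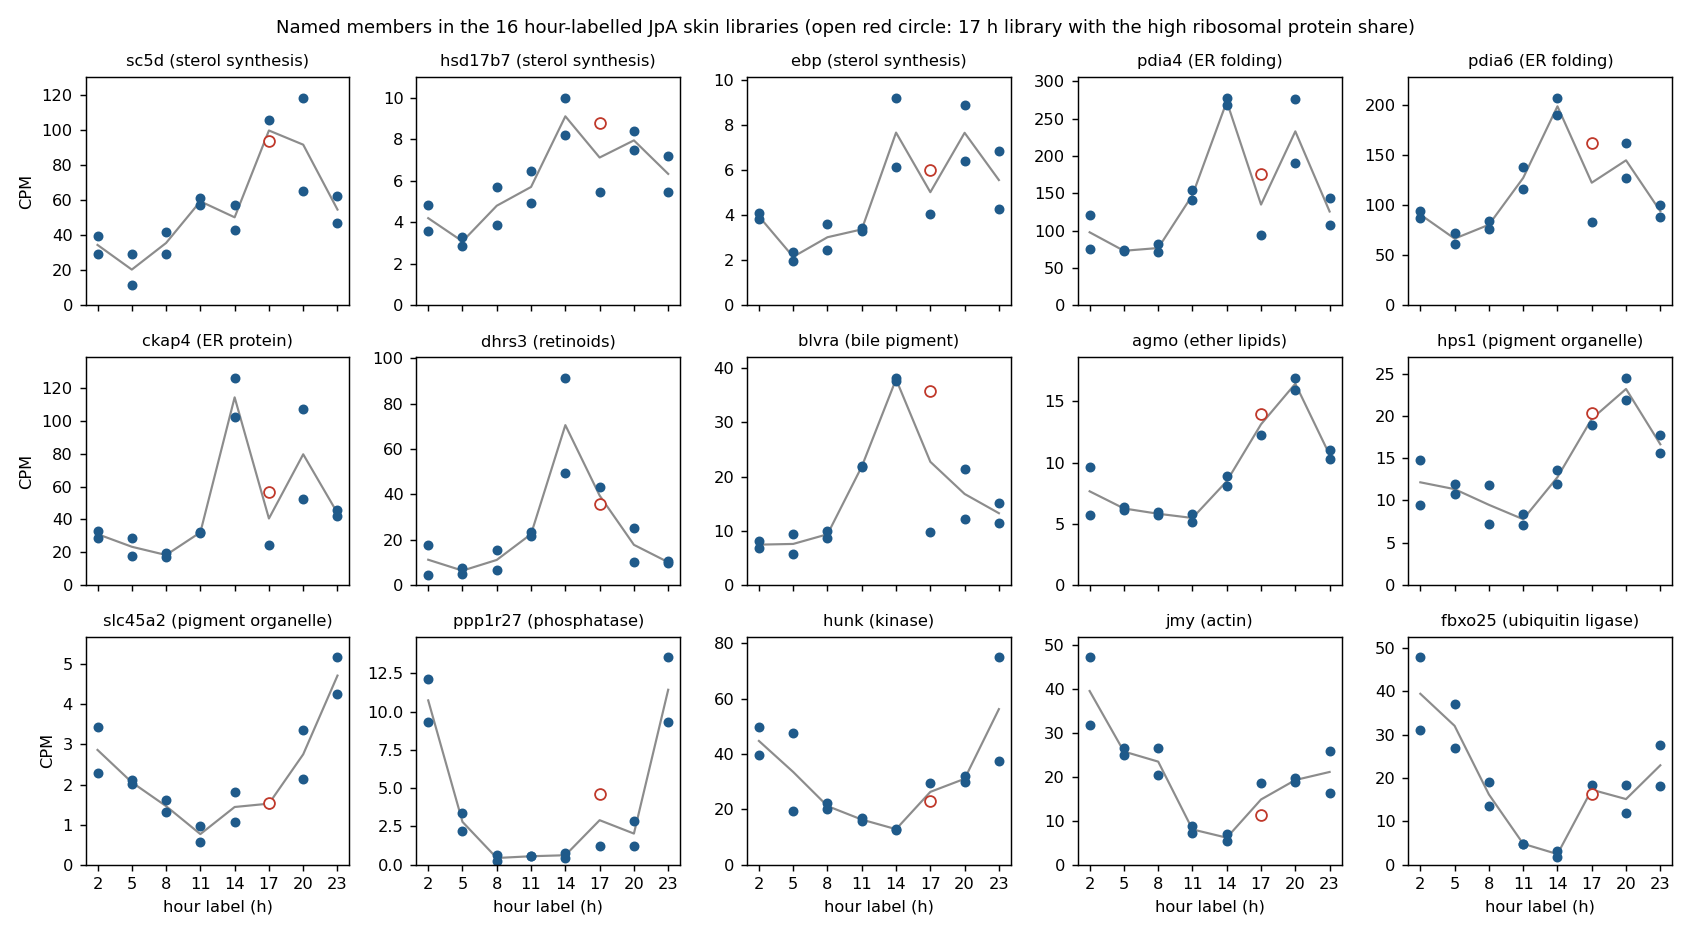
CPM (y axis, linear from 0) by hour label (x axis, h) for 15 named members. Each point is 1 fish, the line joins the means of the 2 fish of an hour, and the open red circle is the 17 h library of replicate 9. In the upper row *pdia4* and *pdia6* are highest at 14 h and *sc5d* at 17 and 20 h, and *ppp1r27*, *hunk*, *jmy* and *fbxo25* are lowest between 8 and 14 h and highest at 23 or 2 h.

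The members with the smallest adjusted p carry only locus names, and 3 of them are given here, chosen after their values were seen. LOC102235545 had 3.76 and 5.85 CPM at 2 h and 127.2 and 235.5 CPM at 17 h. LOC102216993 had 3.99 and 4.09 CPM at 5 h and 46.8 and 42.6 CPM at 20 h. LOC102219044 had 4.04 and 6.61 CPM at 11 h, 209.8 and 168.9 CPM at 23 h, and 246.0 and 125.8 CPM at 2 h. In each of them both fish of the low hour were below both fish of the high hour. All 3 were called in each of the 16 fits without 1 library.

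The limit of the list falls among genes that differ little. The last members inside were *gfer*, a sulfhydryl oxidase of mitochondria (adjusted p = 0.0494 by edgeR's quasi-likelihood test), LOC111608521 (0.0486) and LOC111610601 (0.0495). The first genes outside were *asb1*, *slc39a7* and *slc22a16*, all at an adjusted p of 0.0506. At the edges of the window, LOC102234450 peaked at 15.0 h and *fam185a*, outside, at 14.9 h.

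Each set of hours was also fitted alone. The fish with one-letter names gave 27 genes in the window and those with two-letter names gave 1, with 21 and 1 of the members among them. For 148 members a peak could be fitted in both sets, and the peaks differed by under 3 h in 143 of them, with a median of 0.998 h. *agmo* peaked at 19.7 h in the first set and 19.8 h in the second, and *sc5d* at 18.6 h and 16.8 h. Both sets helped to choose the members, so their nearness is partly fixed by the rule.

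By position in the X_maculatus-5.0-male assembly, members lay on all 24 chromosomes and made up from 0.322% (chromosome 9) to 1.69% (chromosome 20, 17 members) of the genes tested on each. Only 3 pairs of members were direct neighbours. *fkbpl* (chromosome 1, 16460967 to 16463947) and *ebp* (16465639 to 16468317) peaked at 18.0 h and 18.2 h. LOC102219179 and LOC102219945 on chromosome 11 peaked at 19.6 h and 19.7 h, while *pdia6* on chromosome 15 and its neighbour LOC102234275 peaked at 16.0 h and 2.12 h.

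Skin samples without an hour label were then used to ask whether the members vary with clock genes among fish that did not choose them. There were 35 such samples from 32 fish labels, 9 samples of JpA and 26 of JpB, after 4 pairs of JpB libraries of 1 fish label were summed. JpA fish labels were told apart by the label word as well. JpA replicates 22 (0pt) and 23 (sham) share a fish letter, age and label date, as do 24 (0pt) and 25 (sham). Whether each pair is the same fish is not given, and they were kept as separate fish labels. The counts of the 4 summed JpB pairs differed by a chi-square/df of 2.01 to 2.78, where sampling noise alone gives about 1. This measure was not taken for the JpA pairs. Of the summed libraries, replicates 18 and 19 have the label words 0 min and 0pt. Other JpB libraries that share a fish label (replicates 3, 4 and the sum of 5 and 6, and replicates 15 and 16) differed by more and stayed separate. Replicate 3 differed from the others of its label by a chi-square/df of 485 to 555. With every fish label summed, 16 members were called with *clock* in the fit below in place of 17. Of the members 7.28% then rose and 3.31% fell, against 4.97% and 2.73% of all genes. Each gene was fitted against the log2 CPM of *clock*, with strain and label year held constant. The sham label was not held constant. In the sham comparison below, *clock* ran from 4.71 to 11.5 CPM at 0 min or 0pt and from 11.7 to 55.4 CPM in sham. Among those samples, a slope on *clock* cannot be told apart from a difference between the labels. Of the members, 9 rose with *clock*, which is 5.96% against 4.68% of all genes, and 8 fell, 5.3% against 2.88%. Of members peaking from 15 to 18 h, 6 of 47 rose and none fell at the threshold, where 3.33% and 0.654% of all genes with a fitted peak in that stretch did. From 0 to 3 h none of 40 rose and 5 fell, beside 0.636% and 6.4% of all genes, so calls that fell were the more frequent late in the window in all genes as well. The medians of the slopes from the earliest to the latest 3 h of the window were 0.17, 0.10, 0.00 and -0.08, beside 0.03, -0.04, -0.08 and -0.09 for all genes with a fitted peak in the same stretches.

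*pdia6* rose by 0.36 on the log2 scale per log2 unit of *clock* (SE 0.0687, adjusted p = 0.00227 by edgeR's quasi-likelihood test, 35 samples). It ran from 39.8 to 194.5 CPM in these samples with a median of 66.2 CPM. *alad* had a slope of 0.27 (SE 0.0638, adjusted p = 0.0092), from 8.03 to 20.6 CPM with a median of 13.5 CPM. *fbxo25* fell by 0.48 per unit (SE 0.0995, adjusted p = 0.00409), and its lowest, median and highest levels were 4.45, 16.1 and 28.8 CPM. In these samples *pdia6* and *fbxo25* therefore moved in opposite directions with *clock*, with fitted peaks at 16.0 h and 1.26 h. *kif7*, a kinesin of Hedgehog signalling, had a slope of -0.19 (adjusted p = 0.0376), and *glyctk*, glycerate kinase, one of -0.20 (adjusted p = 0.0415), both by the same edgeR test. Both calls were lost in each strain alone, without scaling and with every fish label summed. *clock* itself ranged most in the JpA samples of 20 months, which hold both sham and 0pt fish, from 2.80 to 5.76 log2 CPM. Without JpB replicate 3, 11 or 12 the members called were 17, 18 and 24, and without 11 and 12 together they were 26. The shares of all genes in these fits are not given here, so the counts cannot be compared with each other. Without the 5 JpA libraries of 20 months no member rose and 2 fell (1.32%), against 0.437% and 0.133% of all genes. In JpB alone edgeR called none, against 0.00444% and 0.16% of all genes, with 11 members at an unadjusted p under 0.05. *pdia6*, *fbxo25*, *alad* and *glyctk* all missed the threshold without the JpA samples of 20 months, with slopes of 0.28, -0.29, 0.22 and -0.25.

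With *nfil3* in place of *clock*, 35 members rose and 4 fell, and most of these calls rested on 1 library. The counts are 23.2% and 2.65% of the members, beside 6.46% and 2.89% of all genes tested, and the median slope was 0.13 against 0.02. Without JpB replicate 12, which had the highest *nfil3* of all samples (17.2 CPM, where the others had 2.68 to 13.4 CPM), 10 members rose (6.62%, against 0.25% of all genes) and none fell, with 45 at an unadjusted p under 0.05 by edgeR. Without replicates 11 and 12 together 12 rose and none fell. Leaving out replicate 3, 11 or 21 of JpB or replicate 25 of JpA gave 38 and 6, 31 and 2, 30 and 3, and 34 and 2, and with every fish label summed the counts were 36 and 5. The shares of all genes in these fits, and without replicates 11 and 12 together, are not given here. That share moved from 6.46% to 0.25% without replicate 12 alone, so these counts cannot be compared with each other. Replicates 11 and 12 also stood apart in their muscle markers, whose 5 genes summed to 14160 and 10890 CPM, against 553.8 to 4815 CPM in the other 33 samples. Of these 5 muscle markers 4 rose with *nfil3*, and the part of muscle in the members' slopes was not tested.

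By peak hour, the 35 members that rose in all samples were 5 of 47 peaking from 15 to 18 h, 9 of 36 from 18 to 21 h, 12 of 28 from 21 to 24 h and 9 of 40 from 0 to 3 h, where the shares of all genes also increased, from 4.22% through 8.16% and 10.4% to 11.9%. Among them *ppp1r27* had 615.9 CPM in replicate 12 and 148.6 CPM in replicate 11, against at most 15.9 CPM elsewhere and a median of 0.793 CPM. Its slope was 3.87 (SE 0.827, adjusted p = 0.00555 by edgeR's quasi-likelihood test over 35 samples) and 1.09 without both libraries (SE 0.365, adjusted p = 0.16). *stam*, an endosomal sorting protein, had 84.7 and 39.0 CPM in these 2 libraries, against at most 24.5 CPM elsewhere, and its slope of 0.56 (SE 0.132, adjusted p = 0.0106 by edgeR) became 0.11 without them (adjusted p = 0.523). *gramd1b*, a sterol carrier between membranes, had 49.8 and 24.4 CPM there and at most 13.3 CPM elsewhere, and its slope of 0.75 (SE 0.189, adjusted p = 0.0142 by edgeR) became 0.18 (adjusted p = 0.577). *rab32* had no such gap. It reached 35.3 CPM around a median of 23.3 CPM, and its slope of 0.32 (SE 0.0723, adjusted p = 0.0072 by edgeR) was 0.33 without both libraries, where it just missed the threshold (adjusted p = 0.0515). All of these genes also missed it without replicate 12 alone. They were named after their values were seen. In JpB alone the counts were 39 and 5, where 8.35% and 6.16% of all genes rose and fell. Without the JpA samples of 20 months they were 42 and 7, beside 10.1% and 5.51% of all genes. Without the 11 JpB samples of the second label year, replicates 11 and 12 among them, they were 11 and 0, beside 0.254% and 1.0%. In JpA alone they were 2 and 0, beside 0.0564% and 0.118%. With both regressors 5 members passed in the same direction, and the same count over all genes is not given here. The hour of collection of these fish is not given in the sources used here, and its part in these slopes was not tested. The comparisons of strains, labels and tissues that follow share samples with these fits and with each other, so they are not independent of them.

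**Figure D3:**
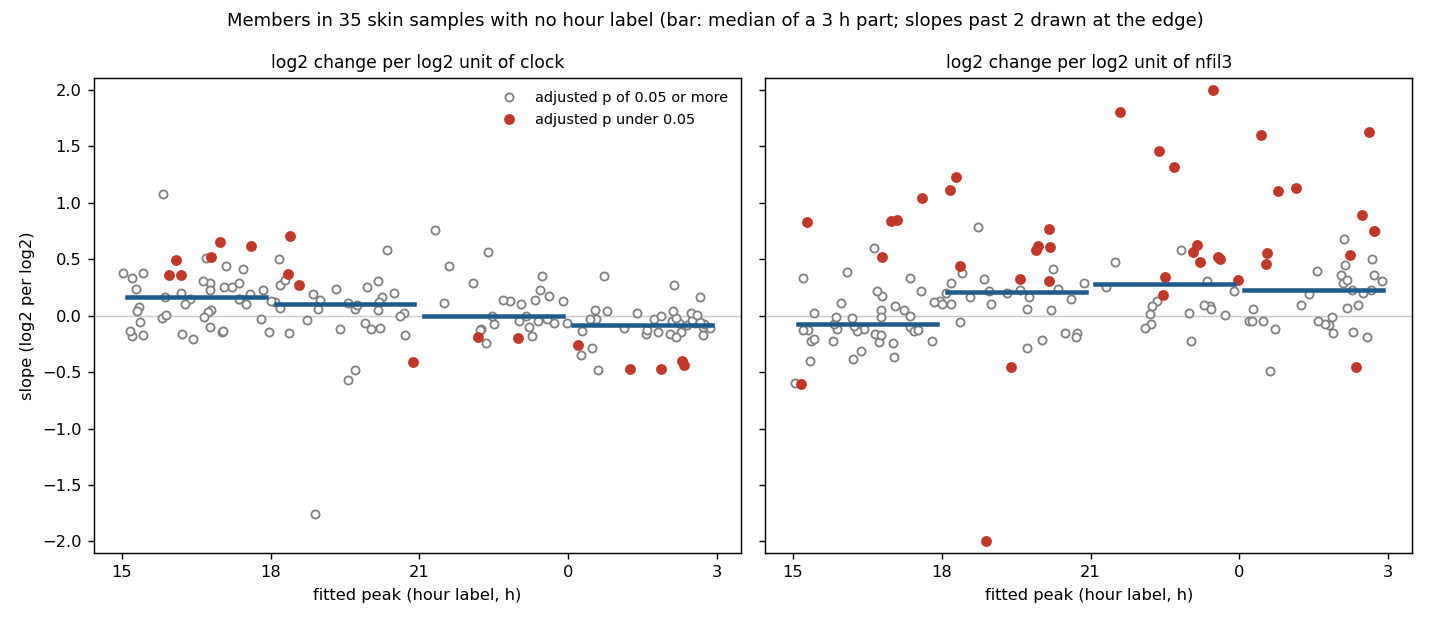
Slope of each member on the log2 CPM of *clock* (left) and *nfil3* (right) in 35 skin samples without an hour label (y axis, log2 per log2 unit) against its fitted peak (x axis, hour label in h). Red points passed an adjusted p of 0.05, blue bars are medians of 3 h stretches, and 2 slopes on *nfil3* past 2 or -2 are drawn at the edge. With *clock* the medians step down from 0.17 to -0.08. With *nfil3* they are -0.08 in the first stretch and between 0.21 and 0.28 after it.

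Between the strains, the members were more often higher in JpB skin than in JpA skin in the JpA libraries of 13 months and the JpB libraries of 9 months with the latest label year, 4 of each. Of 149 members tested, 21 were higher in JpB (14.1%, against 6.31% of all genes) and 2 were lower (1.34%, against 6.47%). The median difference was 0.32 on the log2 scale against 0.00 for all genes, and 111 of the 149 differences were above 0. By peak hour, 7 of 47, 10 of 35, 2 of 27 and 2 of 40 members were higher from the earliest to the latest stretch, with medians of 0.33, 0.56, 0.35 and 0.03. Of all genes with a fitted peak in these stretches, 5.91%, 8.82%, 8.91% and 8.53% were higher, with medians of -0.04, 0.14, 0.20 and 0.13.

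*glt8d1*, a glycosyltransferase-like gene, had 7.53, 10.0, 7.07 and 7.75 CPM in JpA and 12.9, 17.5, 20.2 and 18.1 CPM in JpB. The difference was 1.08 on the log2 scale (SE 0.181, adjusted p = 0.00818 by edgeR's quasi-likelihood test, 4 against 4), and the groups did not overlap. *dnajb5*, a J-domain co-chaperone, had 1.36, 1.17, 2.33 and 3.17 CPM in JpA and 4.31, 7.43, 6.96 and 7.93 CPM in JpB. The difference was 1.73 (SE 0.342, adjusted p = 0.0148 by edgeR). *sestd1*, with 34.2 to 38.1 CPM in JpA and 47.4 to 59.0 CPM in JpB, differed by 0.55 (SE 0.11, adjusted p = 0.0159 by edgeR). *agmo*, with 5.97 to 7.07 CPM and 9.09 to 10.6 CPM, differed by 0.56 (SE 0.131, adjusted p = 0.0275 by edgeR). *vwa1*, a protein of the extracellular matrix, differed by 0.93 (SE 0.234, adjusted p = 0.0334 by edgeR), from 1.04 to 1.79 CPM in JpA and from 2.29 to 3.44 CPM in JpB. None of these named genes overlapped between the strains. Against the general direction, LOC102229879 had 53.0 to 90.6 CPM in JpA and 11.7 to 20.5 CPM in JpB, 2.06 lower on the log2 scale (SE 0.222, adjusted p = 0.00171 by edgeR). The sterol genes *sc5d*, *hsd17b7* and *ebp* did not pass, with differences of 0.08, -0.24 and 0.17.

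Several clock genes and *mxd3*, another of the genes set aside, differed between the same libraries. *nfil3* had 3.00 to 4.52 CPM in JpA and 7.16 to 7.84 CPM in JpB (difference 0.96, SE 0.168, adjusted p = 0.00929 by edgeR's quasi-likelihood test), and *mxd3* differed by 1.19 (SE 0.241, adjusted p = 0.0162). *per1* had 124.6 to 163.4 CPM in JpA and 43.1 to 76.1 CPM in JpB (-1.42, SE 0.193, adjusted p = 0.00403), and *per3* was lower in JpB by -1.14 (SE 0.191, adjusted p = 0.00821). *hlf*, set aside with a peak inside the window, was lower in JpB, unlike *nfil3* and *mxd3*. It had 198.3 to 225.4 CPM in JpA and 123.2 to 171.4 CPM in JpB (-0.525, SE 0.13, adjusted p = 0.0319 by the same edgeR test). *clock* ran from 4.57 to 25.8 CPM in JpA and from 9.24 to 11.9 CPM in JpB (-0.34, SE 0.472, adjusted p = 0.656). The JpA fish were 13 months and the JpB fish 9 months old and their label dates differ, so strain, age and date cannot be told apart, and whether the hour of collection moved with them was not tested. Leaving out the JpB fish of replicate 31, 32 or 33 lowered the 21 and 2 members to 10 and 1, 12 and 1, and 12 and 1. The higher members were then 6.71%, 8.05% and 8.05%, against 2.28%, 2.36% and 3.09% of all genes. The lower were 0.671% each time, against 1.9%, 1.69% and 2.04%. *agmo* missed the threshold in each of these fits, as it also did without replicate 30. *sestd1* missed it without replicate 31, 32 or 33, *dnajb5* without replicate 31, and *vwa1* without any library but JpA replicate 4.

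Markers of other cell types differed between the same libraries as well. Of 9 fibroblast and collagen markers 8 were higher in JpB by edgeR (list median 1.1 against 0.00 for all genes), and their summed level ran from 4074 to 12900 CPM in JpA and from 16450 to 36000 CPM in JpB. Of 5 hepatocyte markers 4 were higher, with sums of 31.5 to 38.6 CPM and 61.6 to 109.3 CPM and 3 of the 5 genes at 0 in at least 1 JpA library, and of 10 osteoblast and scale markers 4 were higher. Of 8 keratinocyte and mucous cell markers 4 were lower, with sums of 6030 to 12690 CPM and 4496 to 5672 CPM. Of 17 immediate early genes 6 were lower and none higher, and of 8 glucocorticoid targets 5 were lower and 1 higher. The part of these cell types and gene groups in the members' differences was not tested.

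Sham fish and fish labelled 0 min or 0pt were compared within 3 fish groups, 7 skin libraries against 6. JpA replicates 22 and 23 share a fish letter across the labels, as do 24 and 25, and the fit took them as separate fish. Of 149 members 1 was called, LOC111610016, a long non-coding RNA, which is 0.671% against 0.152% of all genes higher in sham. It had 0.122 to 0.958 CPM in the 6 fish at 0 min or 0pt and 0.929 to 6.25 CPM in the 7 sham fish (3.05 on the log2 scale, SE 0.539, adjusted p = 0.0498 by edgeR's quasi-likelihood test), and the lowest sham fish lay below the highest fish of the other label. No member was lower at the threshold, where 0.00978% of all genes were. At an unadjusted p under 0.05 by edgeR, 13 members were lower and 30 higher, together 28.9% of those tested against 22.2% of all genes. DESeq2 called 3 lower and 13 higher, given here without the share of all genes. The medians by peak hour stepped from 0.42 for members peaking from 15 to 18 h through 0.18 and -0.02 to -0.28 for those peaking from 0 to 3 h, and those of all genes from 0.09 through -0.02 and -0.11 to -0.14. Above 0 were 37 of 47 members of the first stretch and 7 of 40 of the last. *pdia6* (0.85, SE 0.161, adjusted p = 0.0542 by edgeR), *pdia4* (0.83, SE 0.209, adjusted p = 0.0729) and *ebp* (0.83, SE 0.219, adjusted p = 0.078) were just short of the call. *clock* ran from 4.71 to 11.5 CPM at 0 min or 0pt and from 11.7 to 55.4 CPM in sham (1.63, SE 0.34, adjusted p = 0.0583), and its part in the members' differences was not tested. The call of LOC111610016 was lost on leaving out any 1 of JpA replicates 1, 2, 4, 14, 22, 23 and 24 or JpB replicates 30, 31 and 33. Leaving out JpA replicate 3 or 25, or JpB replicate 32, gave 8, 6 and 2 members. The shares of all genes in these fits are not given here, so the counts cannot be compared with each other.

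**Figure D4:**
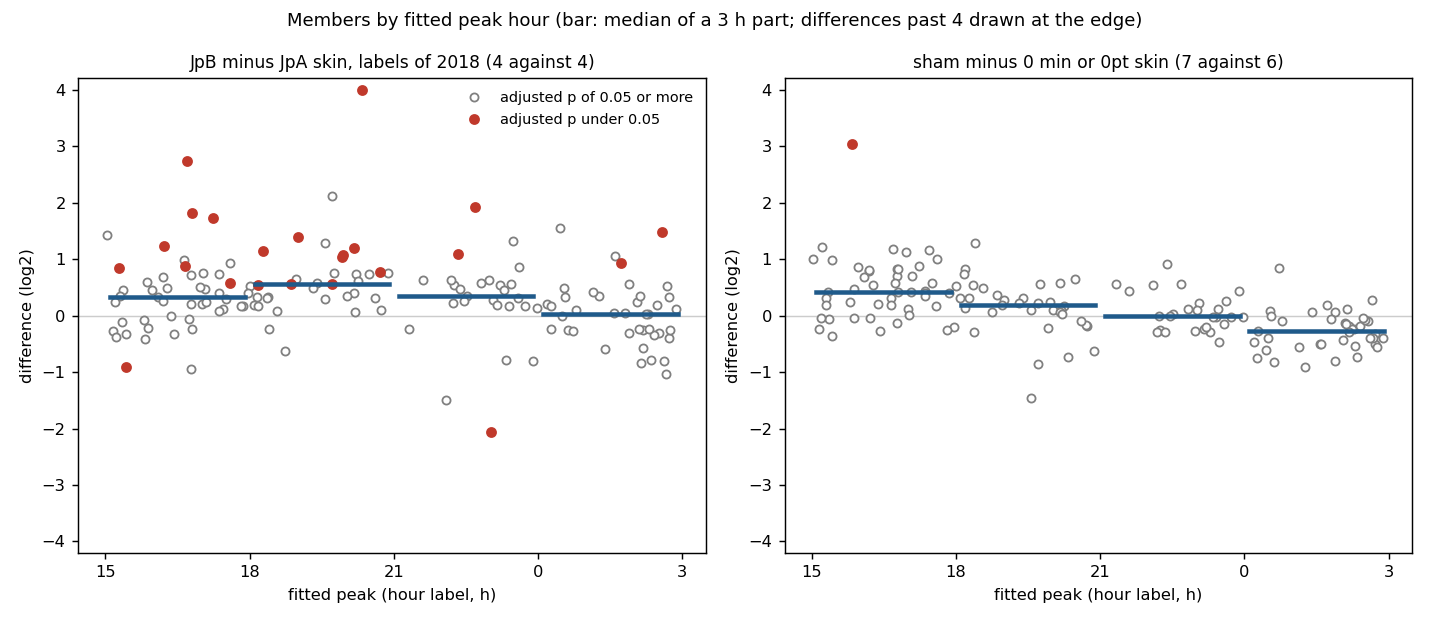
Difference of each member (y axis, log2) against its fitted peak (x axis, hour label in h), for JpB (9 months) minus JpA (13 months) skin (left, 4 against 4 libraries) and for sham minus 0 min or 0pt skin (right, 7 against 6). Red points passed an adjusted p of 0.05, blue bars are medians of 3 h stretches, and 1 difference past 4 is drawn at the edge. On the left most points lie above 0, and on the right the medians fall from 0.42 to -0.28.

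Members lay on both sides when liver was compared with skin. The JpA skin and liver libraries have different label dates, so tissue and date cannot be told apart there. JpA skin replicates 14, 22 and 24 have the fish labels of JpA liver replicates 1, 2 and 3, with 0pt and 0 min taken alike. JpB skin replicates 31 and 32 have those of JpB liver replicates 2 and 4. The fits given here took all libraries as separate fish. In JpA of 20 months, 5 skin and 4 liver libraries, 39 of 146 members tested were higher in liver (26.7%, against 24.9% of all genes) and 52 were lower (35.6%, against 31.1%). In JpB of 9 months, 4 and 4 libraries, 57 of 149 were higher in liver (38.3%, against 36.5%) and 67 lower (45%, against 47%). These shares are near those of all genes. Of 145 members tested in both strains, 38 passed as higher in liver in both, 50 as lower in both and none in opposite directions. The same count over all genes is not given here. Most genes passed in each comparison, 10854 of 19393 in JpA and 17227 of 20645 in JpB. Without a scaling factor the counts became 18 higher and 94 lower in JpA and 22 and 119 in JpB, where the median of all genes moved from -0.16 to -1.76 and from -0.29 to -2.49. The members' shares were then 12.3% higher and 64.4% lower in JpA, against 8.99% and 73.5% of all genes. In JpB they were 14.8% and 79.9%, against 9.75% and 84.5%.

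*glyctk* had 2.29 to 4.08 CPM in JpA skin and 51.4 to 127.6 CPM in JpA liver, a difference of 4.94 (SE 0.304, adjusted p = 5.58e-07 by edgeR's quasi-likelihood test). In JpB the ranges were 2.16 to 2.43 CPM and 63.2 to 88.3 CPM. *slc19a1*, the folate carrier, had 17.3 to 24.0 CPM in JpA skin and 167.1 to 241.0 CPM in JpA liver (3.38, SE 0.197, adjusted p = 4.17e-07), and *agmo* had 2.75 to 5.16 CPM and 24.4 to 85.9 CPM (3.86, SE 0.366, adjusted p = 8.86e-06), both by edgeR. *gramd1b* was higher in liver as well, by 4.29 in JpA and 3.36 in JpB. These members were all far more abundant in liver than in skin in each strain. The skin side held *dpysl3*, a cytoskeletal protein of growing cell processes (-3.37 in JpA, -3.87 in JpB), *msx1*, a homeobox factor (-6.72 and -6.63), and *cited1* (-2.76 and -3.31). *msx1* had 6.92 to 30.6 CPM in JpA skin and 0 to 0.485 CPM in JpA liver, with adjusted p = 2.52e-05 by edgeR. *dhrs3* had 12.1 to 19.0 CPM in JpB skin and 0.393 to 0.746 CPM in JpB liver (-4.80, SE 0.245, adjusted p = 1.25e-08 by edgeR), while in JpA the tissues overlapped (-1.24, SE 0.791, adjusted p = 0.208).

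The sterol genes were mostly higher in liver. *ebp* was higher in liver by 3.20 in JpA (SE 0.431, adjusted p = 0.000104 by edgeR) and 4.49 in JpB (SE 0.458, adjusted p = 3.8e-06), and *hsd17b7* by 1.94 (SE 0.53, adjusted p = 0.0094, groups overlapping) and 3.91 (SE 0.28, adjusted p = 2.03e-07). *sc5d* had 13.5 to 35.9 CPM in skin and 13.5 to 36.8 CPM in liver of JpA, where it did not pass (0.17, SE 0.369, adjusted p = 0.721), and 12.1 to 13.6 CPM and 33.3 to 131.6 CPM in JpB (2.55, SE 0.351, adjusted p = 4.47e-05 by edgeR). Of the 19 sterol genes tested, 12 were higher in liver and none lower in JpA by edgeR (list median 3.20 against -0.16 for all genes), and 17 were higher and 1 lower in JpB. *slc45a2* and *hps1*, by contrast, showed no difference past the threshold in either strain (-0.77, SE 0.44, and -0.33, SE 0.293, in JpA, and 0.27, SE 0.321, and -0.20, SE 0.14, in JpB), while 8 of 12 melanophore markers were lower and 1 higher in JpA liver and 11 of 12 in JpB liver.

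**Figure D5:**
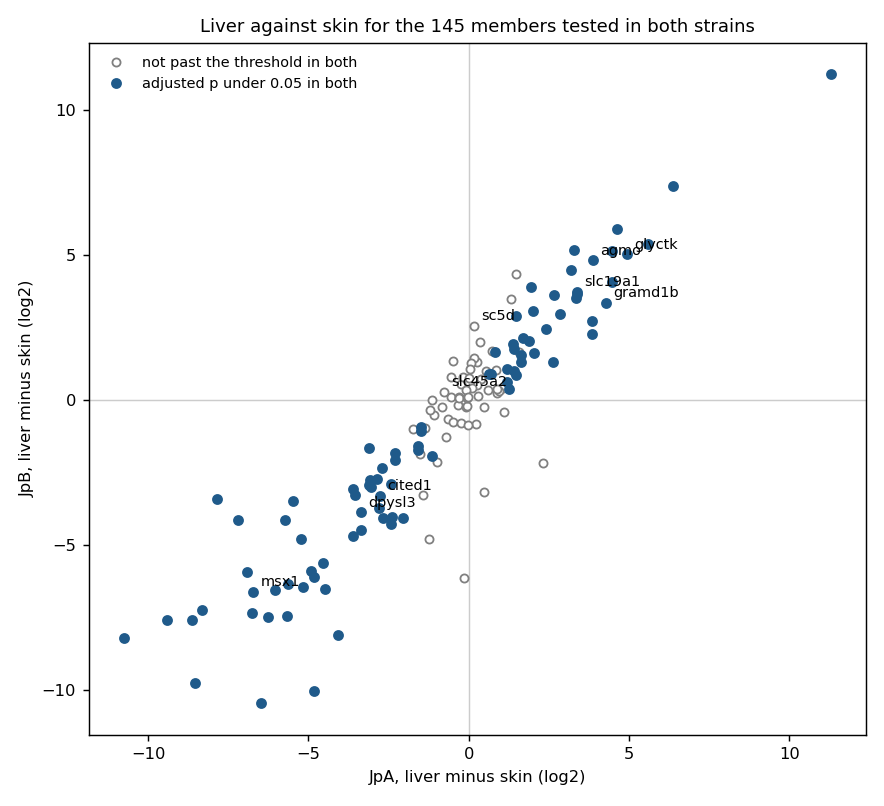
Liver minus skin difference (log2) in JpA (x axis) and JpB (y axis) for the 145 members tested in both strains. Filled points passed an adjusted p of 0.05 in both strains and open points did not. All filled points lie in the lower left or upper right, 50 and 38 of them.

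Of the remaining lists, none gave a member. No called gene peaked in the window among the 17 immediate early genes, 29 cell division genes, 27 proteasome genes, 18 genes of lipid and fatty acid synthesis or 8 glucocorticoid targets tested. All 27 proteasome genes had a fitted peak inside the window without passing, with a median difference of 0.70 on the log2 scale, and their summed level was 3847 CPM in replicate 9 against 1439 to 2579 CPM at 2 to 11 h and 1579 CPM in the other fish of 17 h.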

How the data were processed

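Skin and liver RNA was measured by RNA-Seq in 65 libraries. Per the methods, the authors trimmed paired-end reads, mapped them with TopHat2 to *X. maculatus* genome 5.0 and counted reads on NCBI gene models with featureCounts, and strand and settings are not given in the sources used here. The deposited values are raw counts. All 27242 gene identifiers matched the RefSeq table of X_maculatus-5.0-male.

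Tests used edgeR 4.0.16 (R 4.3.3), with limma 3.58.1 and DESeq2 1.42.0 as alternatives, and figures matplotlib 3.10.9 and pandas 2.3.3 (Python 3.11.15). Low genes were removed with filterByExpr (smallest count 10), TMM gave the scaling, and quasi-likelihood F tests were adjusted by Benjamini-Hochberg over all genes kept. CPM were scaled within each comparison and are compared only within it. Log2 CPM took a prior count of 2. Libraries sharing a fish label became 1 sample if their counts, taken at genes reaching 50 in the pair, gave a chi-square/df below 3. Total counts ran from 26843901 to 98104664. Samples are labelled as fish, and p-values cover only the spread between these samples.

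The members, lists and tests were chosen with earlier results of these data known. Named genes have a symbol and are the 12 with the smallest adjusted p of the time fit, the 8 with the largest peak-to-trough at a mean of at least 1 CPM, members of the lists, up to 5 called members per comparison, the genes at the edges of the rule and the clock genes. Others are said to be chosen after their values were seen. The *nfil3* fits by strain, by label year and with fish labels summed, and the *clock* and *nfil3* fits without single JpB libraries or JpA replicate 25, were added after seeing the data. JpA livers of 13 months, titled JpB but with a JpA strain field, were not used. Alternatives were other scalings, filters, tools and covariates, leaving out each library, hour or label year, and blocks of fish labels.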

Additional observations from a re-analysis of the deposited data

Results flagged for a closer look

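For the members named in the comparisons of strains and tissues, 30 groups of 4 or 5 libraries were checked for a value far from the rest, a check that chance passes in about 1 group of 20. It picked 1. *slc19a1* had 142.5 CPM in JpB liver replicate 1, below 185.6 to 189.1 CPM in the other JpB livers and above 12.3 to 13.9 CPM in JpB skin.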

How the results depend on the processing

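The list itself depends on the processing. In place of 151 genes, DESeq2 gave 981, a factor of the 8 hours 306, added 12 h terms 365, the one-letter fish alone 27 and the two-letter fish alone 1. Leaving out 1 library gave 40 to 971 genes and leaving out 1 hour 29 to 1799. With *clock* as regressor, 17 members were called, against 26 with label date as the factor, 25 by DESeq2, 11 in JpA alone, 26 without JpB replicates 11 and 12, 0 in JpB alone by edgeR (11 at an unadjusted p under 0.05) and 39 with *nfil3*, and 2 to 28 without 1 strain and label year. The shares of all genes moved too. Without 1 strain and label year, 0.437% to 9.23% of all genes rose with *clock*. With label date, 8.61% of members rose and 8.61% fell, against 8.7% and 6.54% of all genes. By DESeq2 the shares were 9.33% and 7.33% against 7.04% and 4.94%. In JpA alone they were 4.76% and 2.72% against 3.4% and 0.708%. With *nfil3* the slopes of *fbxo25* (0.097), *kif7* (0.012) and *glyctk* (0.022) turned positive. The 39 members called with *nfil3* became 2 in JpA alone, 12 without JpB replicates 11 and 12, 10 to 44 without 1 of the 5 libraries tried and 11 to 49 without 1 strain and label year. Without 1 strain and label year, 0.254% to 12.5% of all genes rose with *nfil3*. Between strains, 23 calls became 39 by DESeq2, 32 without scaling, which moved the median of all genes from 0.00 to 0.16, and 11 to 29 without 1 library. By DESeq2 22.4% of members were higher and 4.08% lower, against 10.3% and 12.1% of all genes. Without scaling the shares were 20.1% and 1.34% against 9.04% and 3.98%. Without 1 library the higher shares ran from 6.71% to 16.1% of members and from 2.28% to 8.21% of all genes. The 1 call in sham fish became 0 without scaling, with upper quartile scaling, with a minimum of 1 CPM and without the factor of fish group (42, 46, 47 and 33 members at an unadjusted p under 0.05 by edgeR), 16 by DESeq2, and 0 to 8 without 1 library. The shares of all genes in these sham fits are not given here. Liver minus skin without scaling turned negative for *jmy* (-0.457), *alad* (-0.854) and *kif7* (-1.058) in JpA and for *jmy* (-1.11), *pdia4* (-0.56), *alad* (-0.565) and *kif7* (-1.33) in JpB. With fish label as a replicate block, 82 members were called between tissues in JpA in place of 91 and 118 in JpB in place of 124. In that JpA fit 24.0% of members were higher in liver and 32.2% lower, against 19.8% and 25.1% of all genes. The shares of all genes in that JpB fit are not given here. Of 814 values of named genes under alternatives, 744 kept their call and direction, 60 missed the threshold and 10 are the reversals above. The causes were not tested.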
